A study of Mus musculus with 20 samples.

Results

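The genes described here encode activin and inhibin subunits, bone morphogenetic proteins (BMPs), a TGF-beta ligand (Tgfb2), receptors and a signal transducer. They are Inhba, Inhbb, Inha, Acvr2a, Acvr2b, Bmp4, Bmp7, Bmpr1a, Tgfb2 and Smad3. All 10 symbols were found among the gene probes of the array, as 18 of 41174 probes, and all 18 passed the filter on dim probes that left 35040 probes for testing. Each array held 1 pair of XY gonads at embryonic day 11.5 (17 to 21 tail somites), dissected away from the mesonephroi. The arrays fell into 4 groups of 5 gonad pairs, from several litters each: the inbred strains C57BL/6J and 129S1/SvImJ and their hybrids from reciprocal crosses, (B6x129S1)F1 and (129S1xB6)F1, all without an engineered allele in the labels. Gonad RNA (200 to 450 ng before amplification) was labelled with Cy5. It was hybridised against 1 common pool in Cy3. Gonads (4 XY pairs with 3 XX pairs) and whole embryos (4 that were XY, 2 that were XX) went into this pool, from a cross between Sox9-ECFP (C57BL/6J) and CD-1 mice. Dyes were never swapped. The pool therefore contains the tissue under study and serves only as a common denominator. The series asks how expression in the C57BL/6J gonad, a strain known for its liability to XY sex reversal, differs from that of 129S1/SvImJ and of the hybrids.

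Activins are dimers of beta subunits, encoded by Inhba and Inhbb, while inhibins pair a beta subunit with the alpha subunit encoded by Inha and oppose activin action. Activins bind the type II receptors encoded by Acvr2a and Acvr2b and signal through SMAD2 and SMAD3, whereas BMPs bind type I receptors such as BMPR1A and signal through SMAD1, SMAD5 and SMAD9. In the fetal gonad, activin B and its antagonist follistatin are known for their part in vessel patterning and germ cell survival in the ovary. BMP4 from tissues near the germ cells is known for its part in primordial germ cell formation, and inhibin alpha is a marker of Sertoli and granulosa cells.

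The called differences between groups rested on 3 probes, 1 each for Inhbb, Bmp4 and Bmp7. The sequences of all 5 probes to these 3 ligand genes are given as deposited, 5′ to 3′. They are in lower case throughout because no part of them was singled out. Both probes of Inhbb and both of Bmp7 are shown because the probes of each pair gave different strain comparisons; only the first 30 of 60 bases are printed where the probe may lie outside the coding sequence.
Inhbb A_51_P325904, first 30 bases: cataataacttaaaaccaaagaattttccc
Inhbb A_52_P152847: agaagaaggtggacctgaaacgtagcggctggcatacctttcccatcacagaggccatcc
Bmp7 A_51_P492366, first 30 bases: cctggcgctctgagtctttgaggagtaatc
Bmp7 A_52_P278354, first 30 bases: gctggcgtctgtgttgaagggaaaccaagc
Bmp4 A_51_P383741: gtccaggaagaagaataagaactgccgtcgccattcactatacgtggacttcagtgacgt
Over their 60 bases, G and C made up 35% of the first Inhbb probe and 55% of the second, 55% and 45% of the Bmp7 probes in the order shown, and 48.3% of the Bmp4 probe. The deposited annotation gave both Inhbb probes the accession of 1 transcript, and likewise both Bmp7 probes. The files name no genome build, so the places of the probes within their transcripts are not given here.

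Values are log2 ratios of gonad over pool from the processed channel signals; precision is limited by there being 5 arrays a group. Between 78.4% and 88.3% of gene spots per array were well above background in Cy5. All member probes were well above background in Cy5 on all 20 arrays, except Acvr2a A_52_P575854 on 19, and none was saturated. Of the early somatic gonad markers Nr5a1, Gata4, Wt1, Lhx9, Emx2 and Cbx2, 6 of 6 were above background on every array, and their mean log2 ratio ran from 1.75 to 2.75 over the arrays. Of these 6, Cbx2 alone had a mean log2 ratio below 0 (-0.86). Sry was well above background on 13 of 20 arrays. The arrays came on 5 slides: slide 1 held strain arrays only, slide 5 F1 arrays only with the lowest signal, and slides 2 to 4 held 1 array of each group. The letter in a sample name, which may mark a litter though the labels do not say so, was H for 4 of the 5 C57BL/6J arrays and K for the other. The p-values take arrays as independent.

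Relative to the pool, the gonad was rich in inhibin and activin B transcripts and poor in Inhba. Inhbb A_51_P325904 lay 54.6-fold above the pool (mean log2 ratio 5.77 ± 0.50, SD, n = 20), and only 2 of the 35040 tested probes had a higher mean ratio. The other Inhbb probe gave 2.01-fold (1.01 ± 0.40). Both Inha probes were above the pool on all 20 arrays, at 4.22-fold (2.08 ± 0.20) for A_52_P401484 and 2.89-fold (1.53 ± 0.39) for A_51_P434554. Inhba, the other beta subunit, was below the pool on all 20 arrays, at a mean log2 ratio of -1.09 ± 0.37. Of the 18 probes, 4 had a mean log2 ratio of at least 1 (5.06% of all tested probes did), namely both probes of Inhbb and of Inha. At -1 or less there were 2 (5.67% of all tested probes), Inhba and Acvr2a A_52_P664656. These ratios are a description without a test, since a dye effect and a true difference cannot be told apart without a swap. With normexp background correction and loess in place of the scanner's processing, Inhbb A_52_P152847 (0.64) and Inha A_51_P434554 (0.84) no longer reached a log2 ratio of 1. Likewise Inhba (-0.85) and Acvr2a A_52_P664656 (-0.80) no longer lay at -1 or less.

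Apart from 1 Acvr2a probe, the receptors, the BMP and TGF-beta ligands and the transducer had mean log2 ratios between -1 and 1. The 3 probes of Acvr2a, the type II receptor shared by activins and several BMPs, gave mean log2 ratios of 0.22 ± 0.18, -0.78 ± 0.37 and -1.51 ± 0.34 (SD, n = 20), so this gene had no single ratio. The deposited annotation gave the first of these Acvr2a probes another transcript record than the others. After normexp and loess the 3 means were 0.09, -0.36 and -0.80. Acvr2b, the second activin type II receptor, lay at -0.52 ± 0.41. Bmp4 was at -0.51 ± 0.33, and the Bmp7 probes at -0.38 ± 0.26 and -0.21 ± 0.35. The 2 probes of Bmpr1a, a BMP type I receptor, fell on either side of the pool (0.19 ± 0.26 and -0.30 ± 0.49), Tgfb2 at -0.09 ± 0.50, and the 3 probes of Smad3 between 0.05 and 0.46.

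**Figure D1:**
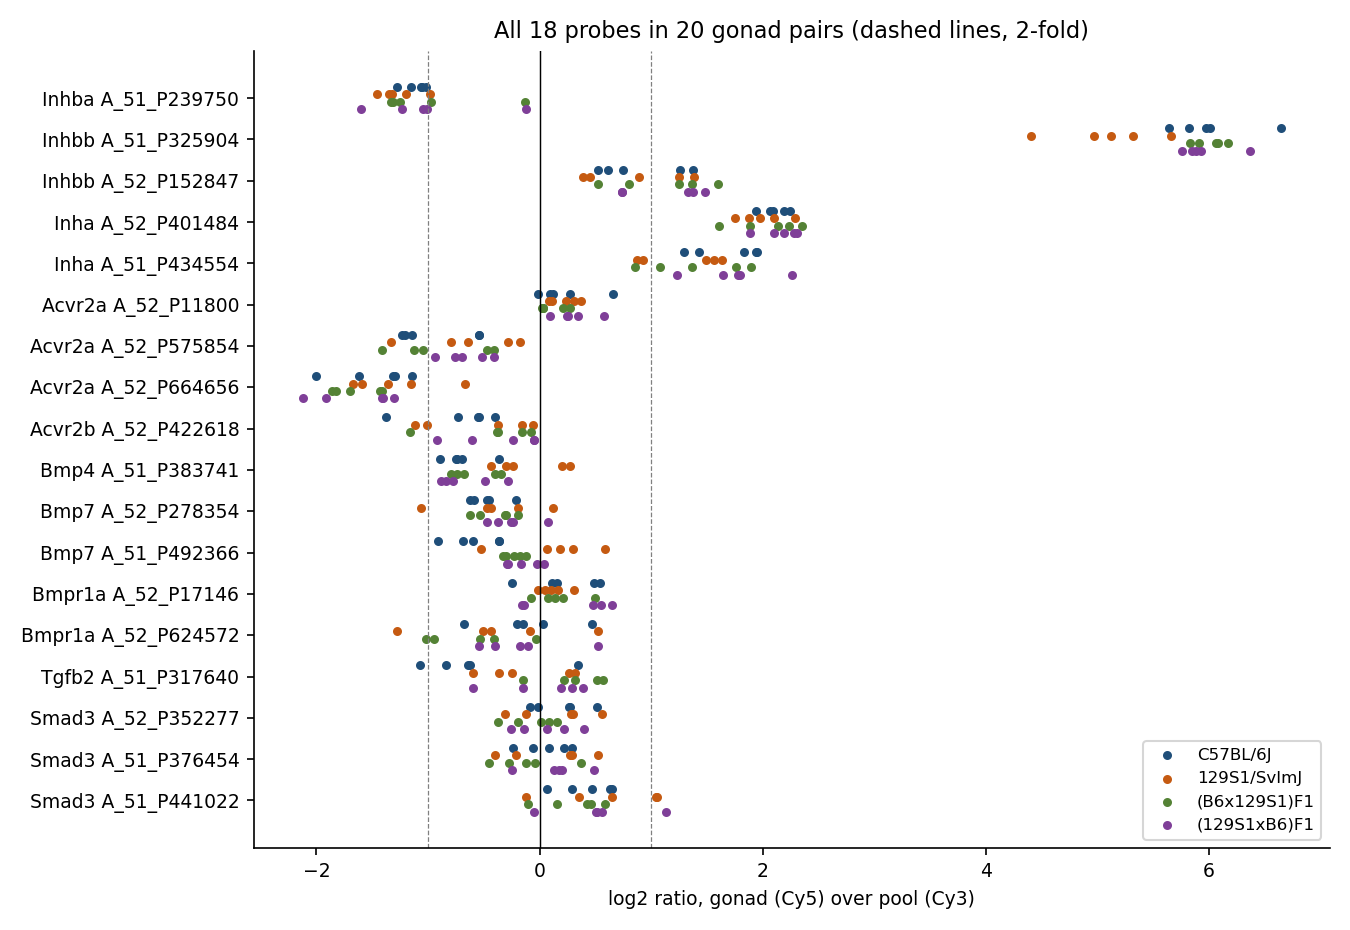
Log2 ratio of gonad over pool for all 18 probes (rows), with 1 point per gonad pair coloured by group. Both Inhbb and both Inha probes lie right of 0 on all 20 arrays, and only the first Inhbb probe reaches values above 4.

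Inhbb, the activin beta B subunit, by its brighter probe A_51_P325904, exceeded the 129S1/SvImJ level 1.89-fold in C57BL/6J. In C57BL/6J the log2 ratios were 5.64, 5.97, 5.82, 6.01 and 6.64, and in 129S1/SvImJ they were 4.40, 5.66, 5.32, 4.97 and 5.12. The strains overlapped only in that the highest 129S1/SvImJ array (A4, 5.66) lay just above the lowest C57BL/6J array (H1, 5.64). The difference was 0.92 ± 0.20 (SE; 95% interval 0.51 to 1.34; limma, adjusted p = 0.0065), and the exact permutation test of this probe gave an unadjusted two-sided p = 0.016. Within the slides that held both strains, the difference was 1.04, 0.31, 1.32 and 0.89 on slides 1 to 4. The only K array (K2, 6.64) was the highest, and the H arrays ran from 5.64 to 6.01. Without K2 the difference was 0.76, and without the lowest 129S1/SvImJ array (A3, 4.40) it was 0.75, called in both fits. In RNA from whole gonads, more cells that express a gene and more RNA per cell cannot be told apart.

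The second Inhbb probe, A_52_P152847, did not show this difference (0.03 ± 0.24, 95% interval -0.48 to 0.54, adjusted p = 0.99). Its log2 ratios were 0.75, 1.26, 0.53, 1.38 and 0.61 in C57BL/6J and 0.46, 1.25, 0.89, 0.39 and 1.39 in 129S1/SvImJ, so the strains overlapped throughout. The gap between the probes (first minus second, per array) was 5.11 ± 0.57 (SD, n = 5) in C57BL/6J and 4.22 ± 0.36 in 129S1/SvImJ. The mean gap was 0.89 larger in C57BL/6J; this is a description without a test, since the gene was taken up because its probes gave different calls. The F1 groups had gaps of 4.90 ± 0.37 and 4.82 ± 0.26. The call for Inhbb therefore rests on 1 of its 2 probes, and what sets the probes apart was not tested. Among gene names with 2 tested probes and at least 1 called between the strains, 416 of 513 (81.1%) had only 1 of the 2 called.

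By the first probe, Inhbb was higher in the hybrids than in 129S1/SvImJ, and its distance from C57BL/6J depended on whether slide was in the fit. Its log2 ratios were 5.83, 6.06, 6.08, 6.17 and 5.91 in (B6x129S1)F1 and 5.84, 5.88, 5.75, 5.93 and 6.37 in (129S1xB6)F1. Every F1 array exceeded every 129S1/SvImJ array, and the F1 values lay inside the C57BL/6J range. The share of all tested probes with such a separation was not counted. The mean of the F1 groups exceeded 129S1/SvImJ by 0.89 ± 0.17 (1.85-fold, adjusted p = 0.0080). Against C57BL/6J the difference was -0.03 ± 0.17 (95% interval -0.39 to 0.33), and against the mean of the strains (mid-parent) it was 0.43 ± 0.14 (adjusted p = 0.36). On slides 2 to 4, which held every group, F1 minus C57BL/6J was -0.14, -0.67 and -0.18, and F1 minus 129S1/SvImJ 0.17, 0.66 and 0.71. With slide as a block the differences from C57BL/6J, 129S1/SvImJ and mid-parent were -0.37 (adjusted p = 0.29), 0.55 (adjusted p = 0.11) and 0.09 (adjusted p = 0.84), none of them called. The excess over 129S1/SvImJ was also not called after quantile scaling between arrays (0.68, adjusted p = 0.096) or without slide 5 (0.79, adjusted p = 0.098); the F test over the 4 groups gave an adjusted p = 0.013.

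The other activin and inhibin subunits did not pass the test in any comparison. Inhba had log2 ratios between -1.28 and -1.02 in C57BL/6J and between -1.46 and -0.98 in 129S1/SvImJ, a difference of 0.15 ± 0.23 (adjusted p = 0.87). In each hybrid group 1 array stood near the pool (F2 at -0.13 and M3 at -0.12), while the other F1 arrays lay between -1.60 and -0.97. Inha, by its brighter probe, differed by 0.11 ± 0.13 between the strains (95% interval -0.17 to 0.39), and its second probe by 0.39 ± 0.22 (adjusted p = 0.46). The activin receptors gave strain differences of 0.00 ± 0.12, -0.29 ± 0.23 and -0.19 ± 0.20 for the probes of Acvr2a and -0.18 ± 0.25 for Acvr2b, none of them called.

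Bmp4, the BMP ligand best known for germ cell induction, was lower in C57BL/6J, at 1.50-fold less than in 129S1/SvImJ. Its single probe is printed in 10 spots per array, which were averaged. The log2 ratios were -0.37, -0.74, -0.74, -0.69 and -0.89 in C57BL/6J and 0.20, -0.43, -0.30, -0.23 and 0.27 in 129S1/SvImJ. Only the C57BL/6J array H1 (-0.37) lay within the 129S1/SvImJ range. The difference was -0.59 ± 0.15 (95% interval -0.91 to -0.27; adjusted p = 0.027), with an unadjusted two-sided p = 0.016 by the exact permutation test. On slides 1 to 4 it was -0.54, -0.31, -0.59 and -0.96. The call was lost with the letter as a block (-0.62, adjusted p = 0.072), with Cy5 alone (-0.57, adjusted p = 0.084) and without slide 1 (-0.62, adjusted p = 0.14), where the difference was of like size, and also without any 1 of the arrays A3, G3, H2, H3 and K2 (-0.57 to -0.50, adjusted p = 0.061 to 0.079).

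In the hybrids Bmp4 had means close to that of C57BL/6J. The ratios were -0.79, -0.74, -0.34, -0.40 and -0.68 in (B6x129S1)F1 and -0.78, -0.84, -0.28, -0.49 and -0.88 in (129S1xB6)F1. F1 minus C57BL/6J was 0.07 ± 0.13, with a 95% interval from -0.21 to 0.34. F1 minus 129S1/SvImJ was -0.52 ± 0.13 and just missed the threshold (adjusted p = 0.055); it was called after normexp and loess (-0.51, adjusted p = 0.049) and without 1 of the arrays L4, C4, A4 and H1 (adjusted p = 0.029 to 0.049).

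Bmp7, a BMP ligand of the embryonic urogenital system, differed between the strains by 1 of its 2 probes. A_51_P492366, printed in 10 spots, read 1.63-fold lower in C57BL/6J, with log2 ratios of -0.37, -0.68, -0.60, -0.36 and -0.91 against -0.52, 0.59, 0.30, 0.18 and 0.07 in 129S1/SvImJ. The groups were separate but for the 129S1/SvImJ array A3 (-0.52). The difference was -0.71 ± 0.16 (95% interval -1.03 to -0.38; adjusted p = 0.0075), or -0.87 without A3, and on slides 1 to 4 it was -0.31, -1.27, -1.21 and -0.43. The brighter probe, A_52_P278354, gave -0.06 ± 0.17 (95% interval -0.41 to 0.28; adjusted p = 0.94), from -0.46, -0.59, -0.63, -0.21 and -0.47 in C57BL/6J and -1.06, 0.12, -0.19, -0.44 and -0.47 in 129S1/SvImJ. Array A3 was the lowest 129S1/SvImJ array on both probes, as it was on Inhbb A_51_P325904.

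The gap between the Bmp7 probes (A_51_P492366 minus A_52_P278354), given as a description for the same reason, was 0.53 ± 0.06 (SD, n = 5) in 129S1/SvImJ, from 0.47 to 0.62, and -0.11 ± 0.21 in C57BL/6J, from -0.44 to 0.09. The strains did not overlap in this gap. Nor did they in the gap of the Inhbb probes (lowest in C57BL/6J 4.64, highest in 129S1/SvImJ 4.58). Both genes were taken up for probes that gave different calls, and the share of other genes with such gaps was not counted. The means of both hybrids lay between those of the strains, at 0.16 ± 0.15 in (B6x129S1)F1 and 0.11 ± 0.15 in (129S1xB6)F1. On A_51_P492366 the ratios were -0.18, -0.30, -0.33, -0.23 and -0.12 in (B6x129S1)F1 and -0.02, -0.17, -0.28, 0.04 and -0.30 in (129S1xB6)F1. All 10 values lay above the 2 highest C57BL/6J arrays (-0.37 and -0.36). How many of all tested probes had F1 arrays so placed was not counted. For this probe the F1 mean was 0.40 ± 0.13 above C57BL/6J (adjusted p = 0.18) and 0.31 ± 0.13 below 129S1/SvImJ (-0.31 as coded, adjusted p = 0.34), neither of them called. Without A3 the latter became -0.47 (adjusted p = 0.044).

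**Figure D2:**
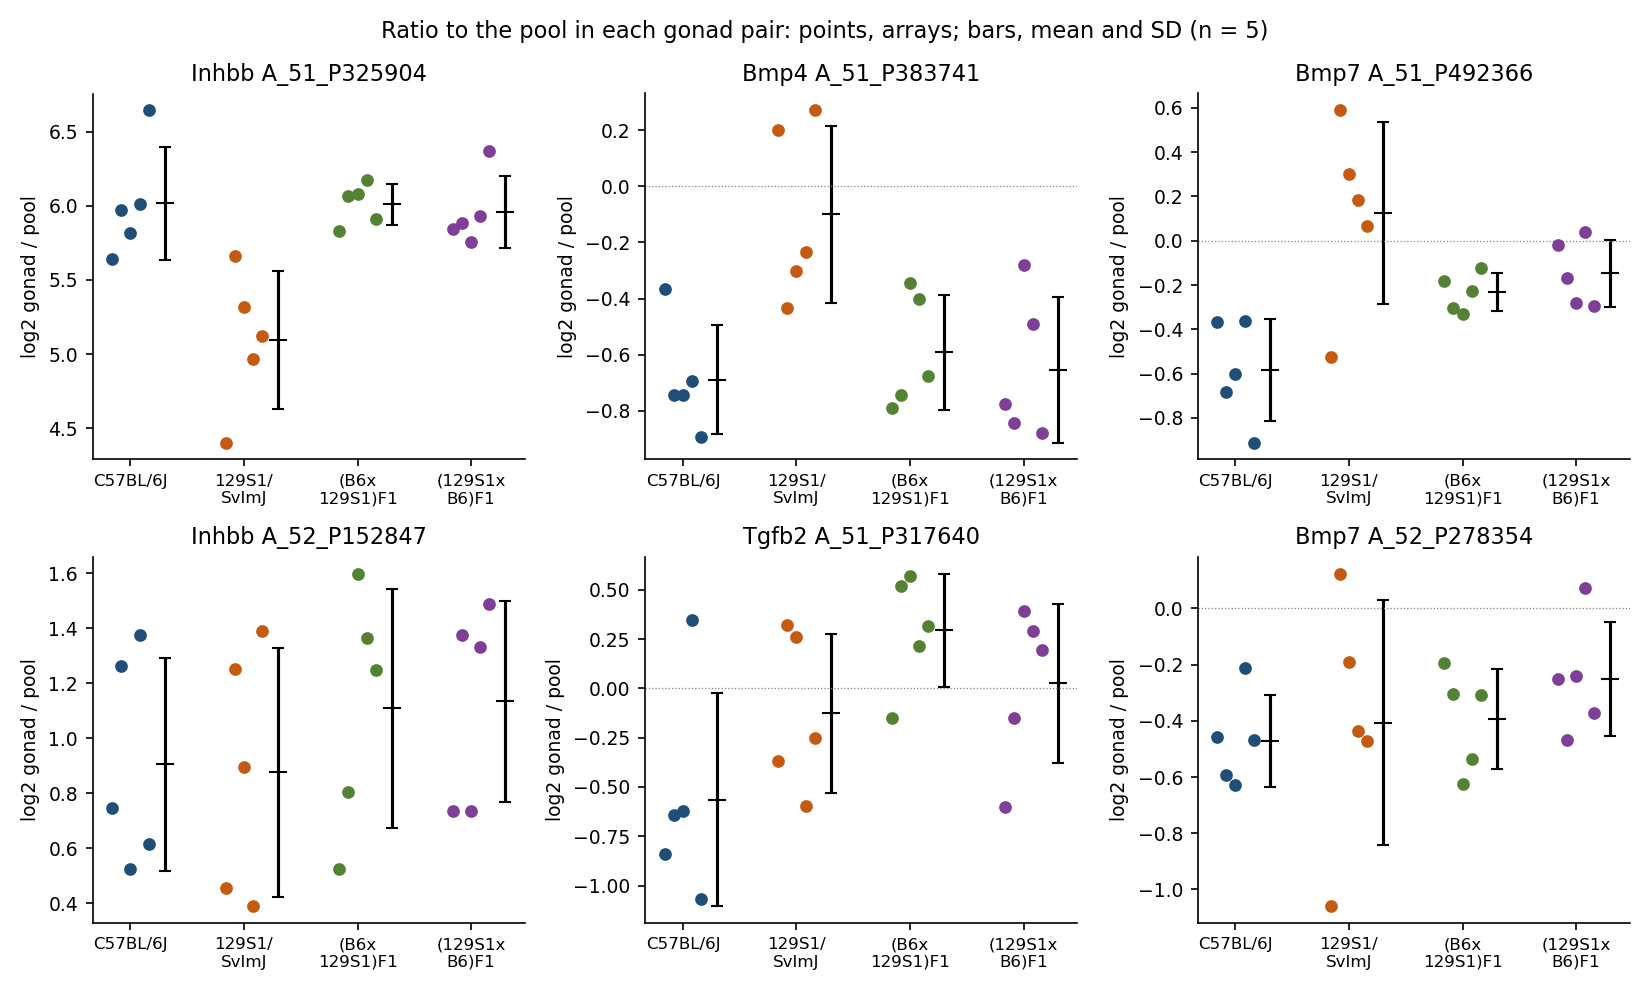
Log2 ratio of gonad over pool on each array (points) for 6 probes, with the mean and SD of each group of 5 as bars beside the points. On the left, the upper Inhbb probe is low in 129S1/SvImJ and the lower Inhbb probe is not, and on the right the upper Bmp7 probe separates the strains except for 1 array while the lower one does not.

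Tgfb2, a TGF-beta ligand, was not called in any comparison over all 20 arrays. Its ratios were -0.84, -0.64, -0.62, 0.35 and -1.07 in C57BL/6J and -0.37, 0.32, 0.26, -0.60 and -0.25 in 129S1/SvImJ, a difference of -0.44 ± 0.25 (adjusted p = 0.45). One C57BL/6J array, H4 (0.35), stood above the other 4. The F1 mean was 0.72 ± 0.21 above C57BL/6J (adjusted p = 0.10), from ratios of -0.15, 0.52, 0.57, 0.22 and 0.32 in (B6x129S1)F1 and -0.60, -0.15, 0.39, 0.29 and 0.20 in (129S1xB6)F1. Without H4 this difference was 0.95 and was called (adjusted p = 0.011), whereas on slides 2 to 4 it was 1.00, 1.25 and -0.72, and with slide as a block 0.45 (adjusted p = 0.46). The probes of Bmpr1a (0.09 ± 0.17 and 0.25 ± 0.28) and of the transducer Smad3 (0.05 ± 0.17, -0.03 ± 0.18 and -0.17 ± 0.22) gave no called strain difference.

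Counted together, 3 of the 18 member probes were called between the strains, 1 higher and 2 lower in C57BL/6J, against 5.47% of all tested probes. The median strain difference of the 18 probes was -0.02, and 0.00 over all probes. At an unadjusted p under 0.05 there were also 3, beside 15.1% of all tested probes. No member probe had strains that did not overlap (5.19% of all tested probes). When only the 10 arrays of the strains were fitted, none of the 3 was called (adjusted p = 0.064 for Inhbb, 0.076 for Bmp4 and 0.080 for Bmp7), although the log2 differences are the same; that fit called 1313 probes in all, and the fit over 20 arrays 1915. The F test over the 4 groups called 1 of the 18, Inhbb A_51_P325904 (3.56% of all tested probes).

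**Figure D3:**
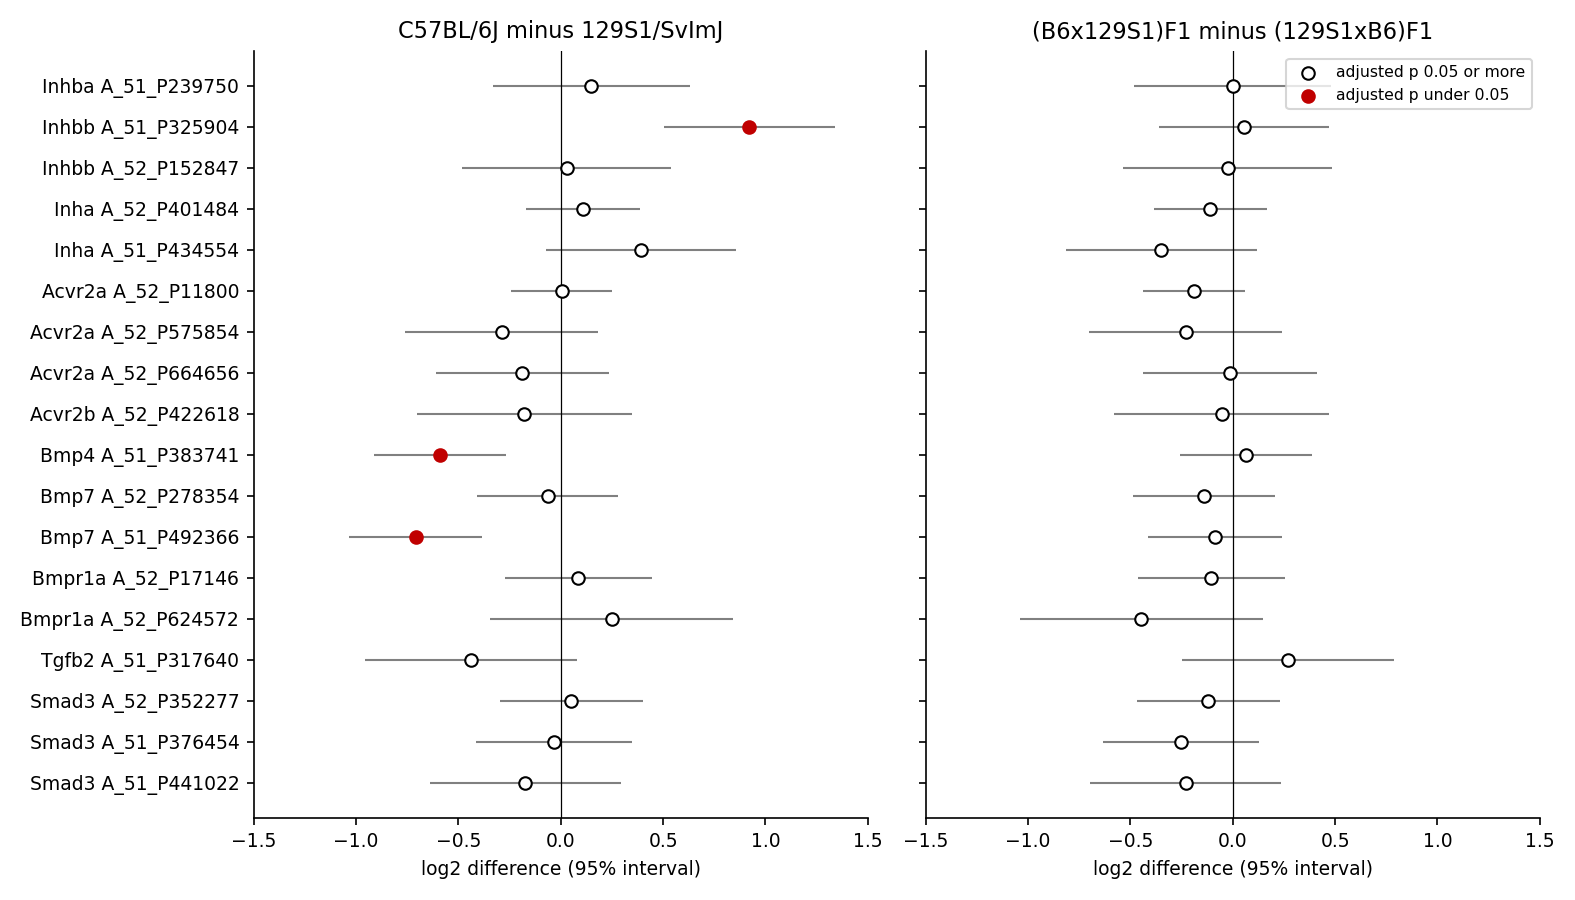
Log2 differences with 95% intervals for the 18 probes between the strains (left) and between the reciprocal crosses (right); red points passed at an adjusted p under 0.05. The 3 red points are 1 probe each of Inhbb, Bmp4 and Bmp7, and no point in the right panel is red.

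The direction of the cross made no detectable difference for these genes. Of the 18 probes, 0 were called between (B6x129S1)F1 and (129S1xB6)F1 by limma (0.00571% of all tested probes, 2 in number), and 0 had an unadjusted p under 0.05. The differences ran from -0.45 for Bmpr1a A_52_P624572 (95% interval -1.04 to 0.15) to 0.27 for Tgfb2 (-0.25 to 0.79). For Inhbb A_51_P325904 the interval was -0.36 to 0.47, for Bmp4 -0.26 to 0.38 and for Bmp7 A_51_P492366 -0.41 to 0.24. Differences inside these intervals are not excluded by the data, and with 5 arrays per cross larger ones could also go uncalled.

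Against the strains, 1 of 18 member probes was called for F1 minus 129S1/SvImJ (1.54% of all tested probes), the first Inhbb probe. None was called for F1 minus C57BL/6J (1.91%), where 2 had an unadjusted p under 0.05, or for F1 minus mid-parent (0.24%), where 3 did. These comparisons share arrays with each other and with the strain comparison, so they are not independent. Side by side, F1 minus C57BL/6J and F1 minus 129S1/SvImJ were -0.03 and 0.89 for Inhbb A_51_P325904 (-0.37 and 0.55 with slide as a block), 0.07 and -0.52 for Bmp4, and 0.40 and -0.31 for Bmp7 A_51_P492366.

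**Figure D4:**
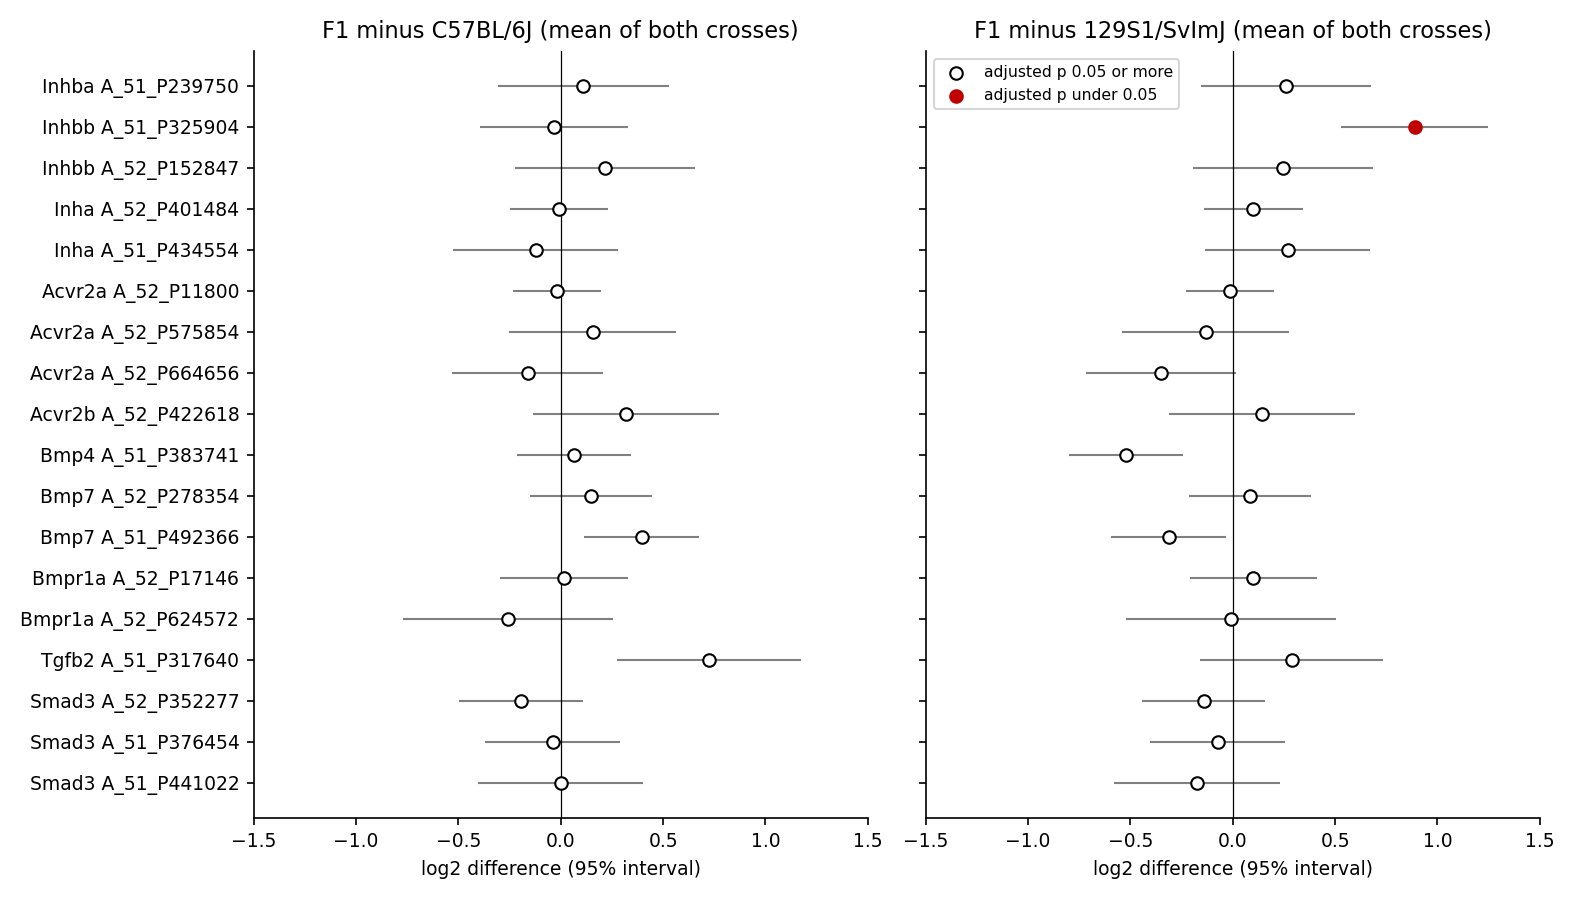
Log2 difference of the mean of both F1 groups from C57BL/6J (left) and from 129S1/SvImJ (right) for the 18 probes, with 95% intervals. The only point past an adjusted p of 0.05 is the first Inhbb probe against 129S1/SvImJ, at 0.89.

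Beyond the members, 67 other genes of these pathways were listed by role, of which 67 were on the array and 65 were tested, each by its brightest probe (Mstn and Bmp8b were not). In the strain comparison 3 were called higher and 1 lower for C57BL/6J, a share close to the 5.47% of all tested probes that were called. Of the 14 tested genes of the activin and inhibin pathway, Fst, which encodes the activin antagonist follistatin, was higher in C57BL/6J by 3.08-fold (1.62 ± 0.28, adjusted p = 0.00073). Its mean log2 ratio was 0.68 ± 0.60 (SD, n = 5) in C57BL/6J and -0.94 ± 0.38 in 129S1/SvImJ. The hybrids were at -0.93 ± 0.32 for (B6x129S1)F1 and -0.71 ± 0.53 for (129S1xB6)F1. The F1 mean was 2.83-fold lower than C57BL/6J (adjusted p = 0.0011) and differed from 129S1/SvImJ by 0.12 ± 0.24. With slide as a block these F1 differences were -1.24 (adjusted p = 0.030) and 0.38 (adjusted p = 0.64). Fst kept its call in both comparisons under all 11 other settings and without any 1 array, with the strain difference at its smallest, 1.00, after normexp and loess.

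Lefty2, an antagonist of Nodal, was lower in C57BL/6J than in 129S1/SvImJ (-0.61 ± 0.16, adjusted p = 0.033), and the hybrids were above C57BL/6J. Its mean log2 ratio was 0.68 ± 0.15 in C57BL/6J and 1.28 ± 0.37 in 129S1/SvImJ, with 1.80 ± 0.27 for (B6x129S1)F1 and 1.57 ± 0.22 for (129S1xB6)F1. F1 minus 129S1/SvImJ was 0.40 ± 0.14 and was not called (adjusted p = 0.22). F1 minus C57BL/6J was 1.01 ± 0.14 (adjusted p = 0.00029) and F1 minus mid-parent 0.70 ± 0.12 (adjusted p = 0.0072), the only pathway gene called in the latter. The mid-parent call was lost with Cy5 alone (0.38, adjusted p = 0.29) and with slide as a block (0.66, adjusted p = 0.16). The strain call was lost without slide 1 (-0.58, adjusted p = 0.29), with the letter as a block (-0.58, adjusted p = 0.12), with the strain arrays alone (-0.61, adjusted p = 0.088) and without any 1 of the arrays A4, A6, D4, H2, H3 and H4. Its paralog Lefty1 was called in F1 minus C57BL/6J (1.35 ± 0.29, adjusted p = 0.014), but not with the letter as a block (0.069), without slide 5 (0.12) or without array H2 (0.055), and how far these probes bind each other's transcripts was not tested.

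Of the 18 tested BMP ligands and receptors, Bmp2 and Acvrl1 were higher in C57BL/6J. Acvrl1, a type I receptor of endothelial cells, differed by 0.69 ± 0.16 (1.62-fold, adjusted p = 0.014), and by 0.41 (adjusted p = 0.43) without slide 1. Bmp2, a BMP ligand of the early ovary, was 1.95-fold higher than in 129S1/SvImJ (0.97 ± 0.27, adjusted p = 0.044) and -0.94 ± 0.24 in F1 minus C57BL/6J (adjusted p = 0.044), and both values lost their call under most other settings. Of these settings, 3 of 11 kept the strain call and 4 of 11 the F1 call, and of the 20 fits that left out 1 array, 6 and 8 did. After normexp and loess the values were 0.54 and -0.56. Without slide 1 the strain difference of Bmp2 was 0.57 (adjusted p = 0.60). Bmpr1b, a BMP type I receptor with the second smallest F test p of this list after Bmp2, differed by 0.49 ± 0.28 (adjusted p = 0.45). Its F1 minus C57BL/6J was larger, at -0.88 ± 0.24 (adjusted p = 0.067). The reciprocal crosses differed by -0.71 ± 0.28, also not called.

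Acvr1c, a type I receptor for Nodal and activins, was not called by its brightest probe (-0.07, adjusted p = 0.89), but its other probes gave -0.81 ± 0.21 (adjusted p = 0.028) and -1.26 ± 0.31 (adjusted p = 0.019), both lower in C57BL/6J. Neither was called after normexp and loess (-0.43, adjusted p = 0.18, and -0.68, adjusted p = 0.15) or without slide 1 (-0.58, adjusted p = 0.26, and -1.33, adjusted p = 0.10).

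No gene of the other lists was called in any comparison: 0 of 6 in the TGF-beta branch, 0 of 16 antagonists and inhibitors and 0 of 11 response genes. With 5.47% of all tested probes called between the strains and smaller shares in the other comparisons, lists this short may hold no call. Genes with the smallest F test p in them differed between the strains by 0.50 ± 0.19 (Ltbp1, a TGF-beta binding protein of the matrix), -0.38 ± 0.13 (Tgfbr2, the type II TGF-beta receptor), 0.12 ± 0.11 (Bambi, a pseudoreceptor), 0.53 ± 0.22 (Ctgf, a TGF-beta target) and 0.39 ± 0.18 (Msx1, a BMP target). Other probes of these genes, none of them called, gave 0.80 ± 0.25 for Msx1 (adjusted p = 0.073), -0.09 ± 0.10 for Ltbp1, 0.10 ± 0.17 for Bambi and -0.13 ± 0.28 and 0.05 ± 0.16 for Tgfbr2. By its brightest probe, Ltbp1 gave -0.61 ± 0.17 for F1 minus C57BL/6J (adjusted p = 0.067). Ctgf gave 0.71 ± 0.19 for F1 minus 129S1/SvImJ (adjusted p = 0.071). The median strain difference of the response genes was 0.22, with 7 of 11 above 0, and over all probes it was 0.00.

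**Figure D5:**
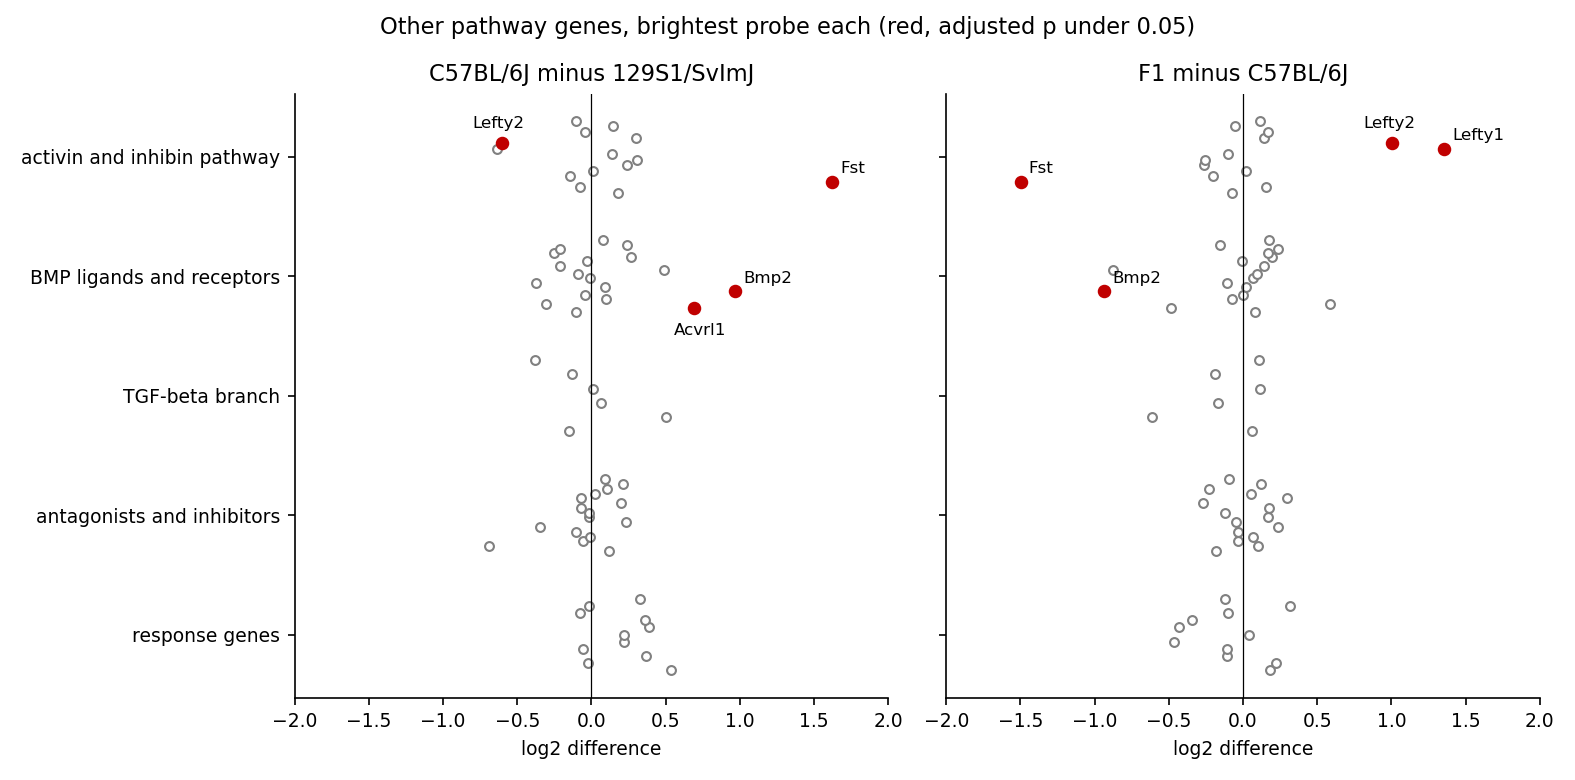
Log2 difference of each of 65 other pathway genes (points), by list, between the strains (left) and between the F1 mean and C57BL/6J (right); genes past an adjusted p of 0.05 are red and named. Fst is the rightmost point on the left (1.62) and the leftmost on the right.

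Marker lists for the cell types of the gonad and its surroundings were summed up by their mean ratio, without a test. The mean log2 ratio of the 5 tested early ovary markers, a list that holds Fst and Bmp2 themselves, was 1.35 ± 0.28 (SD, n = 5) in C57BL/6J and 0.59 ± 0.31 in 129S1/SvImJ, with array means from 0.93 to 1.70 and from 0.34 to 1.04. The 6 early somatic gonad markers gave 2.42 ± 0.22 and 2.10 ± 0.22, the 6 germ cell markers 2.05 ± 0.26 and 2.42 ± 0.16, and the 5 endothelial markers 0.59 ± 0.12 and 0.88 ± 0.08. Steroidogenic and adrenal markers (5 genes) were at 1.14 ± 0.19 and 1.65 ± 0.21, and testis supporting cell markers (6 genes) at 1.02 ± 0.38 and 1.09 ± 0.83. Mesonephros and duct markers (6 genes) gave -0.08 ± 0.22 and -0.13 ± 0.30, erythroid markers (5 genes) 0.18 ± 0.52 and -0.16 ± 0.42, macrophage markers (4 genes) 0.09 ± 0.20 and 0.12 ± 0.16, and interstitial markers (5 genes) 0.07 ± 0.17 and 0.05 ± 0.18. Members of a list did not all differ alike (C57BL/6J minus 129S1/SvImJ). Of the 5 tested early ovary markers, Fst (1.62) and Bmp2 (0.97) differed most, beside Wnt4 (0.62), Rspo1 (0.58) and Foxl2 (0.01). Among steroidogenic and adrenal markers, Star (-0.99) and Hsd3b1 (-1.25) differed most, beside Cyp11a1 (-0.12), Cyp17a1 (-0.06) and Mc2r (-0.12). Sox9 (0.91) was above 0 and the other testis supporting cell markers below. Ddx4 (0.22) was above 0, unlike the other germ cell markers. Nr5a1 (-0.11) and Cbx2 (-0.28) were below 0, unlike the other somatic markers. Apart from Sry and Irx3, the latter well above background on 0 of 20 arrays, the 52 other markers of 54 were detected on every array. In the hybrids, (B6x129S1)F1 before (129S1xB6)F1, the means were 2.75 ± 0.23 and 2.75 ± 0.19 for germ cell markers, 1.87 ± 0.23 and 1.37 ± 0.43 for testis supporting cell markers and 0.52 ± 0.26 and 0.79 ± 0.19 for early ovary markers. The part of these marker values in those of Inhbb, Bmp4, Bmp7, Fst, Bmp2, Lefty1 and Lefty2 was not tested.

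From embryo to embryo within a group, no pair of members moved together beyond the threshold. The 10 brightest probes and Sox9, the testis-determining transcription factor, gave 55 pairs, of which 0 had an adjusted p under 0.05 by permutation within groups and 4 an unadjusted one. By Pearson r, the smallest p was that of Bmp4 with Sox9 (r = -0.67, permutation p = 0.011, adjusted 0.48, n = 20 arrays). Their Spearman rho was -0.60 (permutation p = 0.024, adjusted 0.37). Without the 2 arrays farthest from the median of Bmp4, r was -0.58, and with slide also removed it was -0.64. Acvr2b with Tgfb2 gave r = 0.54 (permutation p = 0.025, adjusted 0.48), and 0.54 after normexp and loess. This pair had the smallest p by Spearman (rho = 0.59, permutation p = 0.014, adjusted 0.37). Inhbb with Bmp4 gave r = -0.54 (permutation p = 0.033, adjusted 0.48), and -0.23 after normexp and loess. Inha with Smad3 gave r = 0.50 (permutation p = 0.035, adjusted 0.48), and 0.45 after normexp and loess. The within-group SD of the members ran from 0.18 for the brightest Acvr2a probe to 0.48 for Bmpr1a A_52_P624572, with a median of 0.33 beside 0.25 over all tested probes.

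Across the 20 arrays, the genes whose brightest probe was most like that of a member, among 23995 compared, are given as a description, since all points share arrays and pool. For Inhbb A_51_P325904 they were Pcsk6 (r = 0.92), Mbp (0.89) and Pkig (0.87), and for A_52_P152847 AK085783 (0.90), Safb2 (0.89) and Cttn (0.88). For Inhba they were 6230414M07Rik (0.86), Olfr535 (0.82) and Tbx19 (0.79). For Inha A_52_P401484 they were Slc7a4 (0.82), LOC622665 (0.81) and Shf (0.81), and for A_51_P434554 Cdc42bpa (0.87), Krt33a (0.82) and Rfx1 (0.82). For Bmp4 they were Agtpbp1 (0.88), AK032841 (0.85) and Adcy2 (0.85). For Bmp7 A_52_P278354 they were Grb2 (0.83), Scrib (0.82) and Dab2ip (0.82), and for A_51_P492366 Tom1l2 (0.85), Zc3h11a (0.84) and Col4a2 (0.83). The probes of Inhbb shared none of these genes, nor did those of Inha or Bmp7. Lists this short, out of 23995 genes, cannot show whether the probes of a gene move together. Compared directly across the 20 arrays, the probes of Bmp7 gave r = 0.62 and those of Inhbb r = 0.39.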

How the data were processed

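Scanner files from 20 Agilent arrays with 2 colours held 45018 spots each, and the authors deposited an intensity per channel that Agilent Feature Extraction 9.1.3.1 had corrected for background and dye, per the file headers. The ratio log2(Cy5/Cy3) of these processed intensity values was taken per spot, flagged outliers and control spots were left out, and spots of a probe were averaged. The authors also deposited a table of log2 ratios, which followed the processed ratios at r = 0.991 to 0.999 across spots. The flags for signal above background are the scanner's, per the file headers. Tested were the 35040 probes whose Cy5 signal was well above background on 4 or more of the 5 arrays in any group, with limma 3.58.1 in R 4.3.3, as group means over 20 arrays (16 residual and 3.3 prior degrees of freedom), with p adjusted by Benjamini-Hochberg over all of them. A probe was called at an adjusted p under 0.05. In simulated data with 200 changed probes, 17 of 67 probes changed by 0.5, 45 of 67 by 1 and 64 of 66 by 2 (log2) were called for the strain difference. Exact permutation tests and 100000 permutations within groups were two-sided (scipy, Python).

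Named were all members with every probe, other pathway genes called in any comparison, the 2 of each list with the smallest F test p (a result among these is not reported here), and the 3 genes most like the subunits and called members. The Acvr1c probes were named after their values were seen. Members and lists were chosen with earlier results of these data known. Alternatives were normexp (offset 50) with loess, the deposited table, quantile scaling, Cy5 alone, other filters, slide or letter as a block, fewer arrays and leaving out each array.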

Additional observations from a re-analysis of the deposited data

Results flagged for a closer look

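In 2 of 72 groups of 5 arrays (18 probes in 4 groups), 1 array stood apart from the rest by more than Dixon's 95% critical value of 0.71 for the gap over the range, and chance alone gives about 1 in 20. For Inhbb A_51_P325904, array M6 of (129S1xB6)F1 had a log2 ratio of 6.37, with the other 4 between 5.75 and 5.93. For Acvr2b A_52_P422618, array C2 of (B6x129S1)F1 had a log2 ratio of -1.16, with the other 4 between -0.38 and -0.08. M6 lay on slide 5, which held only F1 arrays and had the lowest signal, and the cause of either value was not tested.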

How the results depend on the processing

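No member probe that was called changed direction under any setting. Over the 18 probes and 5 comparisons, 2559 values under other settings kept their direction and side of the threshold, 130 uncalled values changed sign, 14 lost their call and 8 gained one. The strain difference of 1 Inhbb and 1 Bmp7 probe was called without any 1 array and under all settings but the fit to the compared groups alone, which called 0 member probes. In F1 minus C57BL/6J that fit called 1. In F1 minus 129S1/SvImJ, member calls were 2 after normexp and loess and 0 after quantile scaling, with slide as a block or without slide 5. With Cy5 alone, the F test called 0 members, as it did without array D4. Normexp and loess left 2 member probes at least 2-fold above the pool. Inhba (-0.85) and Acvr2a A_52_P664656 (-0.80) were then less than 2-fold below it.

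Over all probes, the letter as a block gave 1224 calls for the strain difference, 355 for F1 minus C57BL/6J, 341 for F1 minus 129S1/SvImJ, 38 for F1 minus mid-parent and 722 for the F test. Slide as a block gave 445, 305 and 31 for the F1 comparisons in that order. Without slide 1, which leaves 3 arrays per strain, the strain calls were 853, and without slide 5 the F1 calls were 365 against C57BL/6J and 290 against 129S1/SvImJ; these omissions were chosen after seeing the data. Reciprocal calls were 0 after normexp and loess, 1 with Cy5 alone and 1 among probes above background on all arrays. Leaving out 1 array gave 2 to 5 reciprocal calls (5 without E1), 348 to 631 for F1 minus 129S1/SvImJ (348 without A3), and 51 to 117 for F1 minus mid-parent (51 without C4, 54 without M6). Member calls then ran from 1 to 2 for F1 minus 129S1/SvImJ, 0 to 1 for F1 minus C57BL/6J, 2 to 3 for the strain difference and 0 to 2 for the F test (2 without L4, A3 or H4). Array codes are not shared between groups and pair nothing; slides 2 to 4 hold every group, and slide as a block stands for that pairing. The causes were not tested beyond the fewer arrays fitted. Of the 55 covariation pairs, 9 changed sign after centring on slide and 5 after normexp and loess.

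Simulated strain differences of 0.5 were mostly missed at this number of arrays, with 200 probes changed. The fit to the data called 1915 probes, which shifts the threshold on the unadjusted p, so the simulated shares do not carry over to it.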
